A study of Mus musculus with 6 samples.

Results

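The genes described here encode 7 apolipoproteins (Apoa1, Apoa2, Apoa4, Apob, Apoc3, Apoe and Apom), the microsomal triglyceride transfer protein (Mttp) and the fatty acid carriers Fabp1 and Fabp2. They were chosen by gene symbol, and all 10 were found among the 30927 genes measured, each with 1 transcript cluster, the array's unit of measurement for a gene. RNA levels were read with 6 Affymetrix arrays from BMEL, immortalized hepatoblasts that were derived from the livers of wild-type CD1 mice at E12.5. Hepatoblasts are the fetal progenitors of hepatocytes and of bile duct cells. The 3 control samples received 500 ng of a negative control microRNA mimic and the 3 others 500 ng of a mimic of miR-337-3p, both by lipofection of 50000 cells per well on collagen 1 day after plating, for 48 h. All samples thus share 1 line and 1 transfection procedure. The labels leave unsaid whether the replicates came from different cultures, and the p-values then describe the spread among these arrays alone, part of which may be technical.

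Liver and intestine export fat as lipoprotein particles. Apolipoprotein B is the scaffold of very low density lipoproteins and chylomicrons, and microsomal triglyceride transfer protein loads it with lipid in the endoplasmic reticulum. The smaller apolipoproteins exchange between particles, where they activate or inhibit enzymes and bind receptors. Fabp1 and Fabp2 bind fatty acids inside the cell, the former in liver and intestine and the latter mainly in enterocytes. Transcription of many of these genes depends on the nuclear receptor HNF4A.

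The transfected microRNA is shown for its seed, the stretch that pairs with target messages. The mature sequence from RefSeq (GRCm38.p6, chr12:109585850-109585871, plus strand) is printed 5′ to 3′ with the seed, bases 2 to 8, in capitals.
mmu-miR-337-3p: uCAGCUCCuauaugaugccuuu

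Values are log2 signals as deposited, and a difference is the mimic mean minus the control mean. Median signals over all genes lay between 4.83 and 5.01 on the 6 arrays, and the median difference over all genes was 0.02. No detection call was used, so a signal near these medians may be background. Among hepatoblast markers the keratin genes Krt8 (11.88 to 12.15 over the arrays) and Krt18 (11.88 to 12.20) gave high signals, whereas Dlk1, a hepatoblast surface protein, read only 4.56 to 5.03. Among mature hepatocyte markers 3 of 10 had a mean above the median gene. Markers of intestinal enterocytes were well above the array medians in control samples for several genes, among them the alkaline phosphatase gene Alpi (11.11 to 11.67) and the homeobox gene Cdx2 (8.45 to 8.84). Over the 6 arrays, 7 of the 12 enterocyte markers and 9 of the 10 hepatoblast markers had a mean above the median gene. Control samples thus gave signals above the array medians for some intestinal and some hepatic genes, and not for others.

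After miR-337-3p mimic the intracellular fatty acid carrier Fabp2, the lipid transfer protein gene Mttp and the particle scaffold gene Apob were lower, by 3.68-fold, 3.00-fold and 1.43-fold. These 3 of the 10 genes fell and 0 rose at an adjusted p under 0.05 (limma with Benjamini-Hochberg adjustment over all genes), where 1.68% of all genes fell and 1.89% rose. Fabp1 had the deepest difference of the 10, 5.58-fold lower, and missed that threshold. The shares over all genes include dim genes, those with a mean no higher than the median gene, while 9 of the 10 lay above it. With dim genes left out of the fit 4 of the 10 passed, Fabp1 being added, where 636 of 15463 genes fell and 755 rose. The titles number the arrays of each group 1 to 3, and the labels state no pairing. Arrays of the same number deviated from their group means together, so the numbers were taken as pairs from the values themselves. With the replicate number as a block in the same model 6 of the 10 fell and 0 rose, against 3.88% of all genes falling and 4.7% rising. The additional 3 were Fabp1, Apoa1 and Apoa4. Apoa2 and Apoe had 1.26-fold and 1.32-fold higher means without passing either fit, and Apoc3 and Apom passed neither. The mimic arrays all lay below the control arrays for 5 genes, all above for 2 and overlapped for 3, against 8.33% and 11.2% of all genes that lay wholly below or above. The median difference was -0.61 over the 10 genes. With 1 array left out, 1 of the 10 passed without control replicate 1 or 2 (Mttp) or mimic replicate 1 or 2 (Fabp2), 3 passed without control replicate 3 (Fabp1, Fabp2 and Apoa1) and 0 without mimic replicate 3. Of all 30927 genes, 172 to 358 fell in these 6 fits. In bulk RNA, fewer cells expressing a gene and less RNA per cell cannot be told apart.

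**Figure D1:**
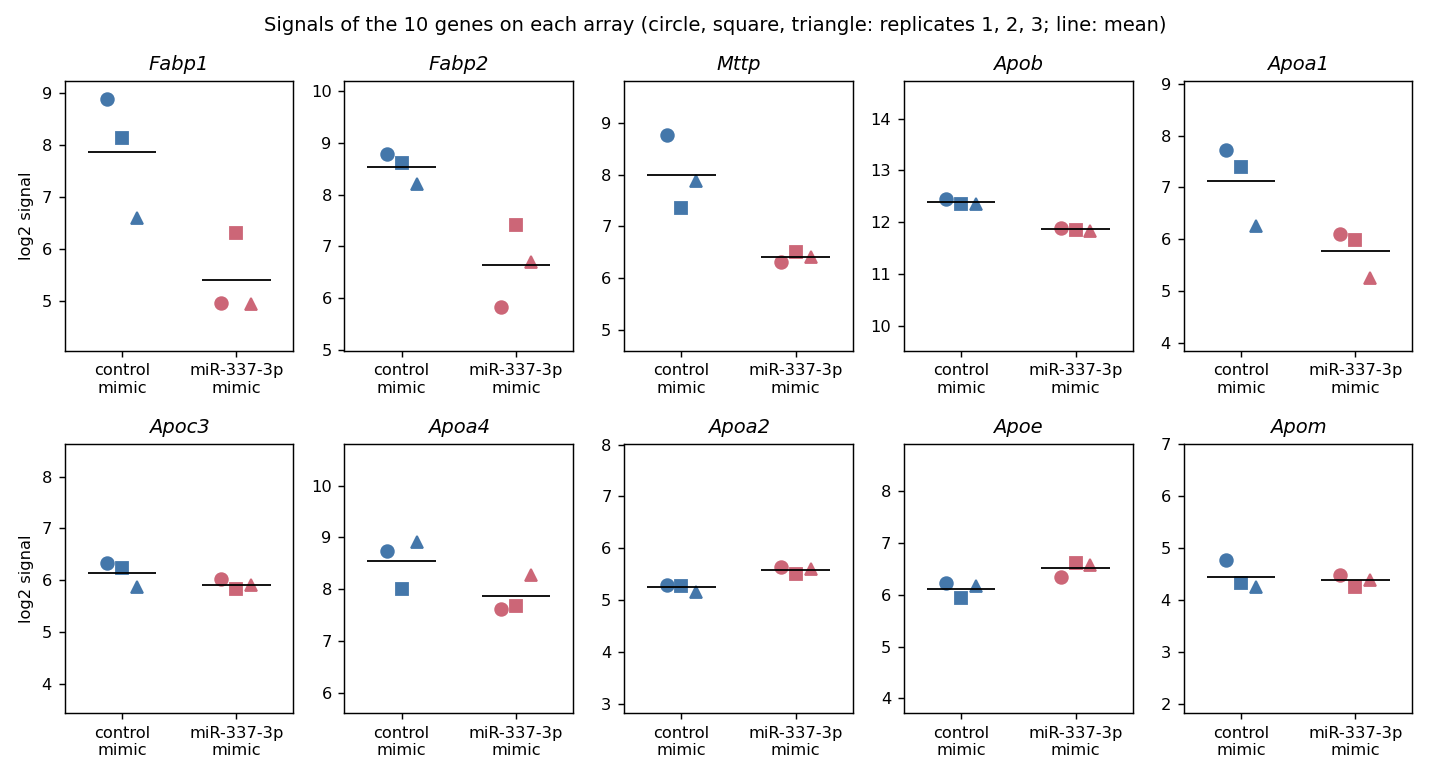
Log2 signal (y axis, the same span in every panel) of each of the 10 genes on the 3 control mimic arrays (blue) and the 3 miR-337-3p mimic arrays (red), with the replicate numbers as symbols and the group mean as a line. Fabp1 spans the widest range within the control group, while the 3 arrays of each group nearly coincide for Apob.

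Fabp1, the liver fatty acid binding protein, read 8.90, 8.13 and 6.60 in control replicates 1 to 3 and 4.96, 6.30 and 4.93 in mimic replicates 1 to 3. Every mimic array was below every control array, but control replicate 3 and mimic replicate 2 came within 0.30 of each other. Group means were 7.88 ± 1.17 and 5.40 ± 0.79 (SD, n = 3 each), and their difference was -2.48 on the log2 scale with a standard error (SE) of 0.57 and a 95% confidence interval from -3.78 to -1.18 (limma, adjusted p = 0.0546, or 0.0119 with the replicate block). Mimic replicates 1 and 3 were at the level of the array medians, where part of the signal can be background and a fold can understate the change. Leaving out control replicate 3, the lowest of its group, brought Fabp1 past the threshold (adjusted p = 0.0193 in limma), and the other 5 fits that left out 1 array did not. It also passed when dim genes were left out of the adjustment (adjusted p = 0.0409). In the authors' deposited table, which averages each group by bi-weight, the fold was 8.24 lower with an FDR p of 0.359.

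Fabp2, the intestinal fatty acid binding protein, read 8.77, 8.61 and 8.20 in control samples and 5.84, 7.41 and 6.70 in mimic samples. The control arrays lay close together, the mimic arrays were more spread, and the groups were 0.79 apart at their nearest arrays. Fabp2 fell by 1.88 on the log2 scale (SE 0.35, 95% confidence interval from -2.68 to -1.08, limma adjusted p = 0.0274). The call was lost without control replicate 1 (adjusted p = 0.113), control replicate 2 (0.0734) or mimic replicate 3 (0.0723) in limma, and held in the other 3 such fits. The 8 other genes of this protein family that were measured (Fabp3, Fabp4, Fabp5, Fabp6, Fabp7, Fabp9, Fabp12 and Pmp2) had log2 differences between -0.06 and 0.35. None of these 8 passed in limma with or without the block, and 0 had an unadjusted p under 0.05, although a test of each against Fabp1 or Fabp2 was not made. Fabp5, a carrier of skin and other epithelia, has 3 transcript clusters, which read from 0.34 to 0.62 higher in the mimic group without passing.

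Mttp, without whose product Apob cannot be lipidated, read 8.76, 7.35 and 7.88 in control samples and 6.32, 6.50 and 6.41 in mimic samples. The mimic arrays were within a narrow band below all control arrays, and the spread lay in the control group, where replicate 1 was highest. Mttp fell by 1.59 on the log2 scale (SE 0.31, 95% confidence interval from -2.28 to -0.89, limma adjusted p = 0.0302). It passed without control replicate 1 (adjusted p = 0.0363) and without control replicate 2 (0.0125) in limma. It was lost without control replicate 3 (0.0701) or without mimic replicate 1 (0.0875), 2 (0.0813) or 3 (0.0823).

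Apob read 12.45, 12.34 and 12.36 in control samples and 11.90, 11.86 and 11.84 in mimic samples. Its replicates were the tightest of the 10 genes, with an SD of 0.06 in the control group and 0.03 in the mimic group, and the groups were separated by 0.45. Apob fell by 0.52 (SE 0.11, 95% confidence interval from -0.78 to -0.26, limma adjusted p = 0.0465). The SE of limma is larger than these replicates alone would give, because it borrows the spread of all genes. The call rested close to the threshold. It was lost in each fit that left out 1 array (adjusted p from 0.0968 to 0.174), after quantile normalization (0.0510) and after centring the arrays on their medians (0.0654). In the authors' deposited table Apob had the lowest FDR p of the 10 genes, 0.109, and the others lay between 0.185 (Apoa2) and 0.934 (Apom), so none passed 0.05 there.

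**Figure D2:**
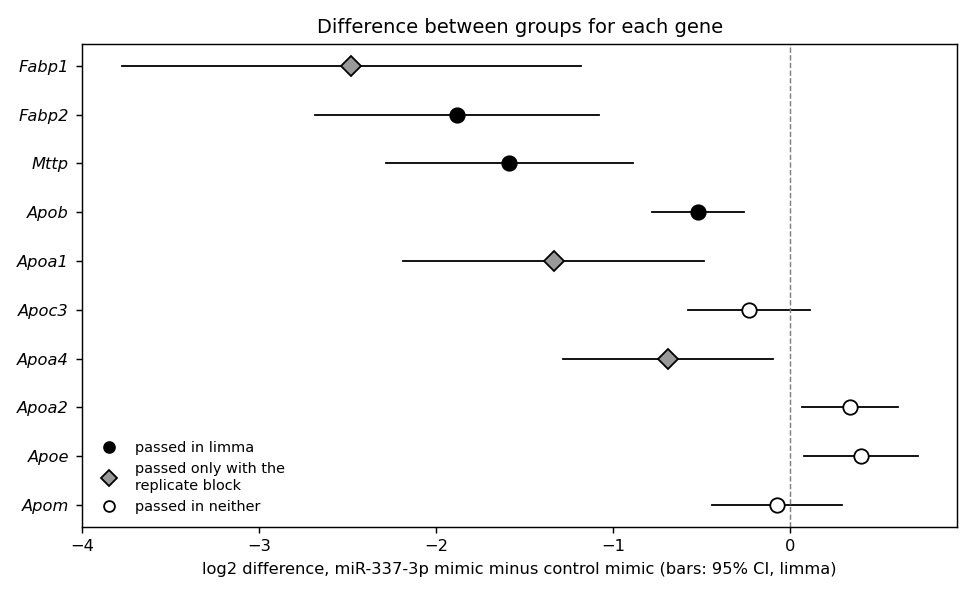
Log2 difference between the groups (x axis, mimic minus control) with its 95% confidence interval from limma for the 10 genes. Fabp2, Mttp and Apob passed in limma, Fabp1, Apoa1 and Apoa4 passed with the replicate block but not without it, and the intervals of Apoc3 and Apom include 0.

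Promoter windows are shown for the 4 genes that were lower and held a match to one of 2 motifs of nuclear receptors. The windows cover 250 bases before to 50 bases after the start, from RefSeq on GRCm38.p6, and were found for 9 of the 10 genes. Searched on both strands were 2 copies of AGGNCA in the same direction with 1 base between them, a direct repeat bound by PPAR and HNF4 receptors, and CAAAGNNCA, the core of HNF4 sites. The core can overlap the repeat. Matches are in capitals, and all 4 genes are on the plus strand (Fabp1 chr6:71199629-71199928, Fabp2 chr3:122894822-122895121, Apob chr12:7977427-7977726, Apoa4 chr9:46240594-46240893).
Fabp1: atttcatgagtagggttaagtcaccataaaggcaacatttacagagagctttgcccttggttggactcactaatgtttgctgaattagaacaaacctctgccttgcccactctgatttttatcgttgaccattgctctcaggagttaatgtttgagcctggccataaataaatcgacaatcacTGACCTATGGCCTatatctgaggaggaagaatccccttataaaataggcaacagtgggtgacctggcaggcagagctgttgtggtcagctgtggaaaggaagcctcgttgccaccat
Fabp2: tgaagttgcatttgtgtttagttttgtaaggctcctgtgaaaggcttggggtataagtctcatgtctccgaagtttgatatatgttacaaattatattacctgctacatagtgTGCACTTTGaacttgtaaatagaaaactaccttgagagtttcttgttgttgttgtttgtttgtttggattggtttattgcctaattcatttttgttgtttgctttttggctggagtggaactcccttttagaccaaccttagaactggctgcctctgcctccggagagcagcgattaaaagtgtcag
Apob: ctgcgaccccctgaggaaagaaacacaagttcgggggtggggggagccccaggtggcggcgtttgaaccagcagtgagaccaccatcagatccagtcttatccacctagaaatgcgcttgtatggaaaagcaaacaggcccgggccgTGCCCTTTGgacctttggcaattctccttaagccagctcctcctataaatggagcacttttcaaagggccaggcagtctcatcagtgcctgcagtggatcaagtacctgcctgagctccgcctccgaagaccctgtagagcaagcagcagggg
Apoa4: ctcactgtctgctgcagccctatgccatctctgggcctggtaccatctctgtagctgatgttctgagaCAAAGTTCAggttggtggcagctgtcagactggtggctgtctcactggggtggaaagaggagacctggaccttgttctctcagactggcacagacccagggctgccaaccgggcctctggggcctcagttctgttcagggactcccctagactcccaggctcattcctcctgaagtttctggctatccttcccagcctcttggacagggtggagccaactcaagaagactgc

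The Fabp1 window held the direct repeat, on its minus strand. The repeat occurs in 0.381% of the 32851 RefSeq promoter windows of this length. Fabp2, Apob and Apoa4 each held the HNF4 core, which 6.36% of windows hold. Of the 12 windows searched for the 9 genes, 4 held a match. Mttp and Apoa1, both with lower means after the mimic, held none, and neither did Apoa2, Apoe or Apom. A match describes the letters and is not evidence of binding.

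Apoa1, Apoc3 and Apoa4 stand in a row on chromosome 9, followed by Apoa5. Apoa1, the main protein of high density lipoproteins, read 7.72, 7.39 and 6.25 in control samples and 6.10, 5.99 and 5.26 in mimic samples. The groups did not overlap but came within 0.15, and within each group replicate 3 was the lowest. The log2 difference was -1.34 (SE 0.37, 95% confidence interval from -2.19 to -0.49, limma adjusted p = 0.104). With the replicate block, which removes the level shared by arrays of 1 number, the SE was 0.14 and the adjusted p 0.00356, the lowest of the 10 genes in that fit. Without control replicate 3 Apoa1 also passed with no block (adjusted p = 0.0224).

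Apoa4, an apolipoprotein secreted mainly by the intestine in response to fat, read 8.73, 8.01 and 8.91 in control samples and 7.63, 7.69 and 8.27 in mimic samples. Mimic replicate 3 lay above control replicate 2, so the groups overlapped. The log2 difference was -0.69 (SE 0.26, limma adjusted p = 0.241, or 0.0403 with the replicate block). Apoc3, an inhibitor of lipoprotein lipase, lies between the other two and read 6.33, 6.24 and 5.87 in control samples and 6.02, 5.83 and 5.90 in mimic samples. Its groups overlapped, with a log2 difference of -0.23 and a 95% confidence interval from -0.58 to 0.11 (limma adjusted p = 0.585). Apoa5, the fourth gene of the row, had a mean of 4.36 in control and 4.33 in mimic samples, below the array medians.

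Apoa2, the other main protein of high density lipoproteins, read 5.30, 5.28 and 5.16 in control samples and 5.65, 5.51 and 5.60 in mimic samples. All mimic arrays were above all control arrays, by 0.21 at the nearest, at signals not far above the array medians. The log2 difference was 0.34 (SE 0.12, 95% confidence interval from 0.07 to 0.61, limma adjusted p = 0.201). Apoe, through which liver cells take up particle remnants, read 6.23, 5.93 and 6.17 in control samples and 6.33, 6.62 and 6.58 in mimic samples. Its groups were 0.10 apart with the mimic arrays higher, and its log2 difference was 0.40 (SE 0.14, 95% confidence interval from 0.08 to 0.72, limma adjusted p = 0.205). Apom, a carrier of sphingosine-1-phosphate, read 4.76, 4.33 and 4.26 in control samples and 4.48, 4.26 and 4.39 in mimic samples. All 6 values were below the median gene of their array, and a change in Apom could hardly be seen at that level (log2 difference -0.07, limma adjusted p = 0.923).

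Arrays of the same replicate number can be set against each other. In these pairs 6 genes were lower in the mimic sample for all 3 numbers, Apoa2 and Apoe were higher for all 3, and Apoc3 and Apom were mixed. Pair 1 held the deepest difference for 7 of the 8 genes with a mean below 0. For these counts the shares over all genes were not computed, so they cannot be set against a background. For Fabp1 the differences were -3.94, -1.82 and -1.67 in pairs 1 to 3, for Fabp2 they were -2.94, -1.21 and -1.50, and for Mttp -2.44, -0.85 and -1.46. Pair 1 thus stood well below the other pairs for these 3 genes. Apob differed from this pattern, with -0.55, -0.49 and -0.52, and Apoa1 had -1.61, -1.41 and -0.99. Replicate 1 also had the highest median signal of all genes in each group. Without both of its arrays, an alternative chosen after the data were seen, the log2 differences were -1.75 for Fabp1, -1.35 for Fabp2, -1.16 for Mttp, -0.51 for Apob and -1.20 for Apoa1. None of the 10 genes then passed (limma adjusted p from 0.109 for Mttp to 0.965 for Apom), and 0.165% of all genes fell.

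**Figure D3:**
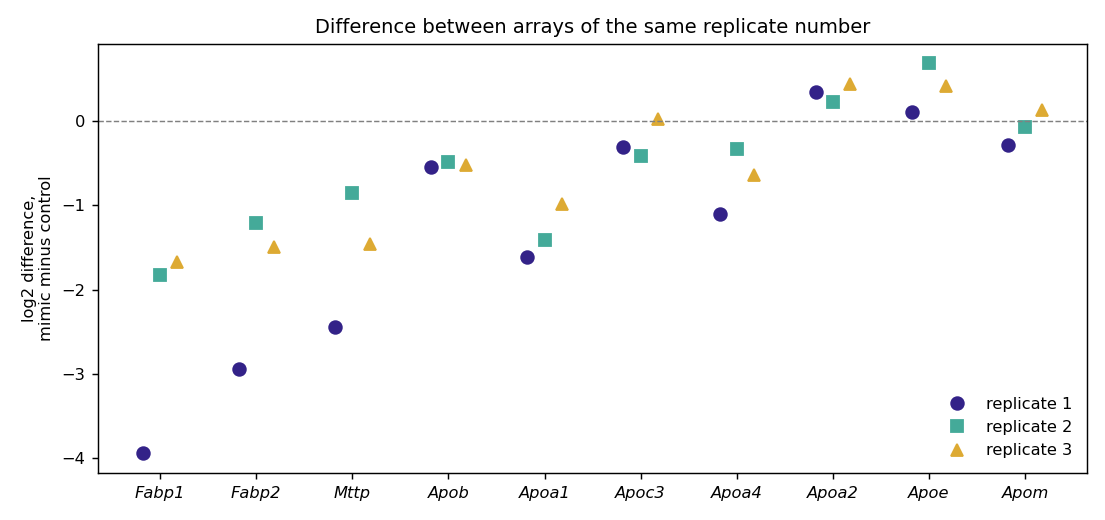
Log2 difference between the mimic and the control array of the same replicate number (y axis) for the 10 genes. Replicate 1 lies lowest for Fabp1, Fabp2 and Mttp, at -3.94, -2.94 and -2.44, while the 3 pairs of Apob fall together between -0.55 and -0.49.

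Genes of lipoprotein particle assembly and secretion were examined as the nearest partners of Mttp and Apob. Of 30 measured, 7 fell and 0 rose (limma), against 1.68% and 1.89% of all genes. Of the 30, 29 had a mean above the median gene. With dim genes left out 9 of the list passed, where 636 of 15463 genes fell and 755 rose. This and the other gene lists were chosen with earlier results of these data known. The shares over all genes are thus no independent background for their counts. The list median was -0.38 against 0.02 over all genes. With the replicate block 11 fell, against 3.88% of all genes. Tm6sf2, an endoplasmic reticulum protein needed to lipidate very low density lipoproteins, read 10.61, 9.80 and 9.97 in control samples and 7.84, 8.52 and 8.33 in mimic samples and fell by 1.90 (SE 0.24, adjusted p = 0.00722). A1cf, the RNA-binding partner of the enzyme that edits Apob messenger RNA, read 9.95, 9.59 and 9.34 against 7.46, 8.21 and 7.83 and fell by 1.79 (SE 0.22, adjusted p = 0.00648). The nearest arrays of the groups were 1.28 apart for Tm6sf2 and 1.13 for A1cf. Acsl1, which activates fatty acids with coenzyme A, fell by 1.47 (SE 0.14, adjusted p = 0.00330), and Cideb, a lipid droplet protein that enlarges nascent particles, fell by 1.06 (SE 0.18, adjusted p = 0.0175). Tm6sf2, A1cf and Acsl1 passed in all 6 fits that left out 1 array and Cideb in 4 of them. The other 3 that fell, named after their values were seen, were Acsl3 by 0.82, the cargo receptor gene Mia2 by 0.81 and the triglyceride synthesis enzyme gene Dgat2 by 0.87 (adjusted p from 0.0376 to 0.0463). Apobec1, the editing enzyme itself and also named after its value was seen, had a log2 difference of -0.82 (adjusted p = 0.0830, or 0.0417 with the block). With 1 array left out, 4 of the list fell without control replicate 1 or 3 and 3 without mimic replicate 1 or 2. Another 2 such fits gave 6 (without control replicate 2) and 8 (without mimic replicate 3). In these fits 172 to 358 of all 30927 genes fell. Only Tm6sf2 fell without both arrays of replicate 1 (limma adjusted p = 0.0475), where 0.165% of all genes fell.

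Of 27 lipoprotein receptors, lipases and cholesterol exporters, 6 fell and 0 rose (limma), against 1.68% and 1.89% of all genes. Of the 27, 23 had a mean above the median gene. With dim genes left out 5 of the list passed, where 636 of 15463 genes fell and 755 rose. With the replicate block 9 fell and 0 rose, against 3.88% and 4.7% of all genes. The list median was -0.26. Abcg5 and Abcg8 form the pump that returns sterols to bile and gut lumen. Abcg5 read 7.37, 6.77 and 7.21 in control samples and 5.10, 5.04 and 4.96 in mimic samples, and fell by 2.09 (SE 0.17, adjusted p = 0.00233), and Abcg8 fell by 1.80 (SE 0.26, adjusted p = 0.00976). Both were near the array medians in the mimic group, where a fold can understate the change. Sorl1, a sorting receptor that binds lipoproteins, fell by 1.54 (SE 0.27, adjusted p = 0.0216). Abcg5 and Abcg8 passed in all 6 fits that left out 1 array and Sorl1 in 3. Cubn, a receptor that takes up apolipoprotein A-I, fell by 2.24, and Lpl, a lipase that Apoc3 inhibits, by 0.75 at signals below the array medians, both named after their values were seen (adjusted p = 0.0238 and 0.0455). Leaving out mimic replicate 1 left 3 of the list. When the control array numbered 1 was left out too, Abcg5 alone fell (adjusted p = 0.0387).

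**Figure D4:**
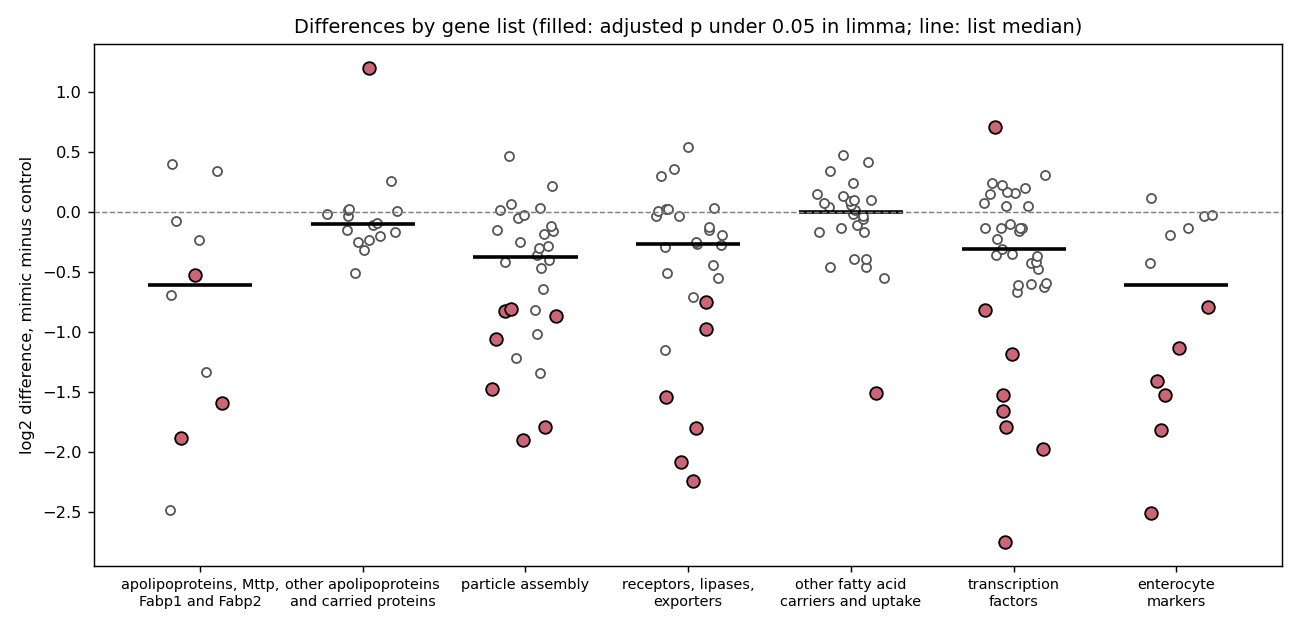
Log2 difference (y axis, mimic minus control) of every measured gene in 7 lists, with genes that passed in limma filled and the list median as a line. Particle assembly genes, receptors and transcription factors reach below -1.5, while the other apolipoproteins and the other fatty acid carriers lie mostly near 0.

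Of 16 other apolipoproteins and proteins carried on particles, 0 fell and 1 rose (limma), against 1.68% and 1.89% of all genes. The list median was -0.10. The riser was Clu (clusterin or apolipoprotein J), a secreted chaperone, which read 10.53, 11.04 and 10.22 in control samples and 11.86, 11.74 and 11.80 in mimic samples. Clu rose by 1.20 (SE 0.20, adjusted p = 0.0174) and passed without control replicate 2 or 3 and in no other fit that left out 1 array (adjusted p up to 0.0794). Apoc2, the activator of lipoprotein lipase and a neighbour of Apoe on chromosome 7, read 9.01, 8.69 and 8.13 against 8.42, 8.28 and 7.63, so that its groups overlapped although each pair of one number was lower in the mimic sample. Its log2 difference was -0.50 (SE 0.27, adjusted p = 0.455, or 0.0322 with the block). The paraoxonase gene Pon3 differed by -0.32 (adjusted p = 0.442) and the apolipoprotein D gene Apod by 0.26 (adjusted p = 0.514). Of the 16 genes, 7 had a mean signal above the median gene, so a fall in the others could hardly be seen.

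Of 26 other fatty acid binding and uptake genes 1 fell and 0 rose (limma), against 1.68% and 1.89% of all genes. The list median was 0.00. The gene that fell was Rbp2, the intestinal retinol carrier of the same protein superfamily as Fabp1 and Fabp2. Rbp2 read 7.88, 7.44 and 7.11 in control samples and 5.63, 6.27 and 6.02 in mimic samples, fell by 1.50 (SE 0.23, adjusted p = 0.0125) and passed in all 6 fits that left out 1 array. The plasma retinol carrier Rbp4 had a log2 difference of -0.39 (adjusted p = 0.143), the acyl-CoA carrier Dbi -0.55 (adjusted p = 0.159, or 0.0230 with the block) and the peroxisomal acyl-CoA binding protein gene Acbd5 -0.46 (adjusted p = 0.164).

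Among 37 transcription factors known to act on these genes, 7 fell and 1 rose (limma), against 1.68% and 1.89% of all genes. Of the 37, 35 had a mean above the median gene. With dim genes left out 10 of the list passed, where 636 of 15463 genes fell and 755 rose. The list was chosen with earlier results of these data known. With the block 10 fell and 1 rose, against 3.88% and 4.7% of all genes. The list median was -0.31. Hnf4g, an intestinal relative of HNF4A, read 9.90, 8.84 and 9.83 in control samples and 6.54, 6.82 and 6.97 in mimic samples and fell by 2.75 (SE 0.27, adjusted p = 0.00367). Creb3l3, a membrane-bound factor that activates Apoa4 and other lipid genes of liver and gut, fell by 1.65 (SE 0.17, adjusted p = 0.00429), from 9.33, 9.47 and 9.39 to 7.43, 8.10 and 7.71. The nearest arrays of the groups were 1.87 apart for Hnf4g and 1.24 for Creb3l3. Cdx2, which directs intestinal fate, fell by 1.52 (SE 0.16, adjusted p = 0.00373), and Nr1h4, the bile acid receptor FXR, by 1.97 (SE 0.26, adjusted p = 0.00741). These 4 passed in all 6 fits that left out 1 array. Klf4, Pparg and Nr5a2, named after their values were seen, fell by 1.79, 1.18 and 0.82 (adjusted p from 0.0191 to 0.0466). Hnf4a, the main hepatic regulator of the set, read 10.25, 9.85 and 10.03 against 9.73, 9.60 and 9.74, without overlap, at a log2 difference of -0.35 (SE 0.14, adjusted p = 0.271, or 0.114 with the block). Of the list 4 passed without control replicate 1 or 3 and 5 without control replicate 2, and without both arrays of replicate 1 Klf4 alone passed (adjusted p = 0.0475).

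Markers of other cell types were read on the same arrays. Of 12 intestinal enterocyte markers 6 fell and 0 rose (limma), against 1.68% and 1.89% of all genes, and their median was -0.61. The marker lists, too, were chosen with earlier results of these data known. The sum of the linear signals of the 12 ran from 9286 to 11650 in control samples and from 3886 to 5003 in mimic samples. Cdh17, Alpi, Cdhr5 and Vil1, all among the 6 that fell, added most to these sums. Cdx2 is also in the list of factors above. Alpi read 11.58, 11.11 and 11.67 against 9.07, 9.70 and 10.14 and fell by 1.81 (SE 0.27, adjusted p = 0.0115). The other 4 that fell, named after their values were seen, were the disaccharidase gene Sis by 2.50, the brush border genes Cdhr5 by 1.41 and Vil1 by 1.13, and the cadherin gene Cdh17 by 0.79 (adjusted p from 0.00912 to 0.0363), while Anpep had a log2 difference of 0.12 (adjusted p = 0.972). With 1 array left out 3 to 5 of the 12 fell, 3 of them without control replicate 1 or mimic replicate 3, and 0 fell when both arrays of number 1 were left out. Of 10 measured mature hepatocyte markers 1 fell and 0 rose. It was the thyroid hormone carrier gene Ttr, which fell by 1.22 (adjusted p = 0.0259) and passed in 1 of 6 fits that left out 1 array. The summed signals of this list overlapped, at 1230 to 1549 in control and 1284 to 1423 in mimic samples. The transferrin gene Trf added most to these sums. Cps1, named after its value was seen, had a log2 difference of -0.97 (limma adjusted p = 0.0818, or 0.0145 with the block). Differences lay below 0 for 5 of the 10 hepatocyte markers and above 0 for 5. Of 10 hepatoblast markers 1 fell and 0 rose, with sums, to which Krt8 and Krt18 add most, of 12450 to 13470 and 11880 to 13300. Epcam, an epithelial adhesion molecule of hepatoblasts and of intestinal epithelium, fell by 1.00 (SE 0.13, adjusted p = 0.00682) and passed in all 6 fits that left out 1 array but not without both arrays of number 1 (adjusted p = 0.0884). The albumin gene Alb had a log2 difference of -1.14 (adjusted p = 0.127, or 0.0249 with the block). Fabp1, Apoa1, Apoa4, Apob and Mttp are active in both liver and intestine, and the part of cell identity in their differences was not tested. Markers of endothelial cells (0 of 6 changed) and erythroid cells (0 of 6) had no mean above the median gene. Macrophage and mesenchymal lists each had 1 gene that rose, Cd68 of 8 and Col1a1 of 8, and none that fell.

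**Figure D5:**
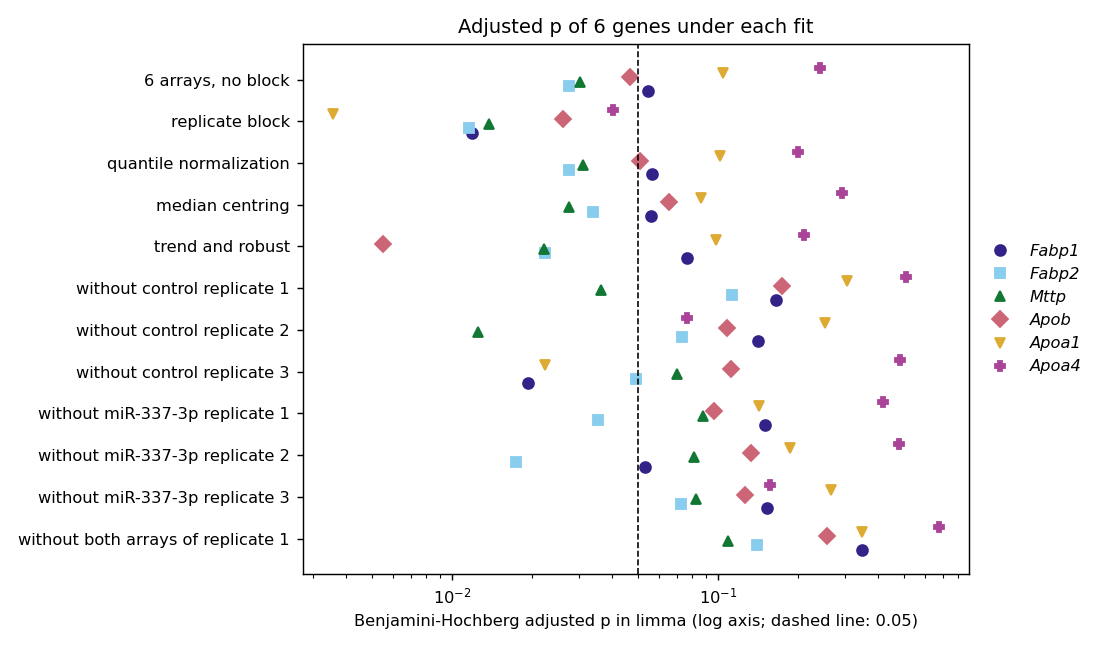
Benjamini-Hochberg adjusted p (log x axis, threshold 0.05 dashed) of 6 genes under 12 limma fits. Fabp1, Fabp2, Mttp, Apob, Apoa1 and Apoa4 all lie left of the threshold with the replicate block, and all lie right of it without both arrays of replicate 1.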

How the data were processed

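Total RNA of 6 samples (3 control mimic, 3 miR-337-3p mimic, grouped by sample title) was labelled from 6 ug for Affymetrix arrays, per the labels' protocols. Background correction, normalization, software and array design were not given in the sources used here. Deposited by the authors were log2 signals of 41345 transcript clusters on each array, taken here as normalized. The authors' comparison table gives bi-weight log2 averages, a signed fold (a score), a linear ratio, and an ANOVA p-value and FDR p-value, per the file headers. Symbols came from that table for 32453 rows and 30927 genes. For the 909 genes with several rows the row with the highest mean was used.

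The deposited values were modelled by lmFit and eBayes of limma 3.58.1 (R 4.3.3), with no filter, group as the only term, and Benjamini-Hochberg adjustment over all genes. A gene passed at an adjusted p under 0.05. The fit was tested on simulated data. Precision is limited by the number of arrays, with a median SE of 0.15. Arrays that share a replicate number deviated from their group means together, with correlations over genes of 0.431, 0.370 and 0.442, each above 0.1, so the numbers were taken to pair the arrays. That comes from the values, not the labels. A fit with the replicate number as a block is given where it changes the call of a named gene. Alternatives were quantile normalization, median centring, trend and robust variance, a filter on dim genes, every row tested, plain ANOVA, leaving out each array, and leaving out both arrays of replicate 1. Per further list, up to 4 genes with the smallest unadjusted p are named. The genes and lists were chosen with earlier results of these data known. Some genes counted in the lists are not reported here by name. No set test was run, and no 3' UTR was used. Python 3.11.15 with pandas 2.3.3 and matplotlib 3.10.9 handled tables and figures.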

Additional observations from a re-analysis of the deposited data

How the results depend on the processing

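With the replicate block, 2654 genes passed over the array against 1103 without it, and 6 of the 10 genes described here against 3. The block also gave 2 other apolipoprotein genes (1 without it), 11 particle assembly genes (7 without it) and 2 fatty acid carrier genes (1 without it), and it took no call from the 10 genes. Receptors, lipases and exporters that passed went from 6 to 9 with the block, and transcription factors from 8 to 11. Plain ANOVA, the test of the authors' table, passed 4 genes over the array and 0 in every list, with 4047 at an unadjusted p under 0.05. Without both arrays of replicate 1, 77 genes passed, with 0 of the 10 genes, 0 other apolipoproteins, 1 assembly gene, 1 receptor or exporter, 0 fatty acid carriers and 1 transcription factor. Median centring left 4 assembly genes and 5 transcription factors (8 without it). With 1 array left out, 322 to 721 genes passed over the array, 0 to 3 of the 10 genes, 0 to 1 other apolipoproteins, 3 to 8 assembly genes, 3 to 5 receptors and exporters, 1 fatty acid carrier in each fit and 4 to 6 transcription factors. These fits have fewer arrays. Among the 10 genes the only differences that turned in sign were those of Apom, from -0.17 to 0.08 with 1 array left out (0.0841 without control replicate 1, below 0 in the other 5) and 0.03 without both arrays of replicate 1. Of 139 recomputed differences of the 10 genes, 110 kept their direction and side of the threshold, 21 lost a call and 6 gained one. All 21 lost calls were those of Fabp2, Mttp and Apob. The other 7 genes had no call to lose, and where they stayed without one they count among the 110. The cause of the changed calls was not tested. Signals near the array medians limit what can be seen for Apom, Apoa2 and the mimic values of Fabp1.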
